A study of Homo sapiens with 18 samples.

Results

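Of the 60707 genes read from the count table, 7 encode the subunits that set the PBAF and noncanonical BAF forms of the SWI/SNF chromatin remodelling complex apart from canonical BAF: ARID2, PBRM1, BRD7 and PHF10 for PBAF, and BRD9, BICRA and BICRAL for noncanonical BAF. They were chosen by name, with no rule on measured values but with earlier results of these data known. All 7 passed the filter on low counts, which left 16474 genes for testing. The cells were of the Raji line, derived from a human Burkitt lymphoma (a B cell tumour), in a system in which auxin triggers degradation of the SMARCA4 (BRG1) protein through a degron tag. The 18 RNA-seq libraries formed 6 groups of 3: cells with high or with low GFP, each at 24, 48 and 72 h, all with the genotype given as Smarca4+/+. The column names join GFP with BRG1, but what the GFP level reports, which groups received auxin, the number of clones and the starting point of the hours are stated nowhere in the sources used here. Those sources also do not tie the 3 libraries of a group to separate cultures; p-values then reflect library-to-library spread alone, which may be technical.

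SWI/SNF complexes use the ATPase SMARCA4 or SMARCA2 to move or eject nucleosomes, and they share a core to which each form adds its own subunits. In PBAF, ARID2 holds the complex together in the place that ARID1A or ARID1B takes in canonical BAF, PBRM1 carries an array of bromodomains that read acetylated histone tails, BRD7 adds another bromodomain, and PHF10 carries PHD fingers. Noncanonical BAF lacks an ARID subunit and SMARCB1, and is defined by the bromodomain protein BRD9 together with BICRA (GLTSCR1) or its paralogue BICRAL (GLTSCR1L), which occupy the same place in the complex. The data are mRNA levels and say nothing of the amount of any complex.

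On hg38, as the deposited table gives it, ARID2 (ENSG00000189079.17) lies on the + strand at chr12:45729706-45908040. PBRM1 (ENSG00000163939.18) spans chr3:52545352-52685917, BRD7 (ENSG00000166164.16) spans chr16:50313487-50368988, PHF10 (ENSG00000130024.15) spans chr6:169703902-169725566 and BRD9 (ENSG00000028310.18) spans chr5:850291-892801, all on the - strand. BICRA (ENSG00000063169.11) at chr19:47608196-47703277 and BICRAL (ENSG00000112624.12) at chr6:42746958-42868560 are on the + strand. All 7 are protein-coding, with summed exon lengths from 5982 bases for PHF10 to 12086 bases for ARID2. The GC content of the longest GENCODE 29 transcript ran from 37.3% in PHF10 to 68.6% in BICRA, with 53.4% in BRD9 and 40.4% to 44.0% in the other 4. Exons of PBRM1 share 146 bases with UQCC5 and those of BRD9 share 222 bases with ZDHHC11, and the overlaps of BRD7 and PHF10 are given with those genes. By name BRD7 has 7 pseudogenes, with 449 counts in all over the 18 libraries against 91128 for BRD7, and PHF10 has 1 with 30 counts; reads could have been split with these copies.

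Promoter sequences from RefSeq (GRCh38.p14) were at hand for 6 of the 7 members, in 11 windows of the 250 bases before a start site. Those shown are for the member with the largest difference between GFP levels (BICRAL), for its paralogue (BICRA), and for the member with the highest level (PBRM1). The windows lie at chr6:42746737-42746986 on the + strand, at chr19:47607946-47608195 on the + strand and at chr3:52685914-52686163 on the - strand. Letters run 5′ to 3′ along the strand of the gene, and capitals mark matches, on either strand, to the letters GGGCGG (the GC box that SP1 binds), CCAAT (the box that NF-Y binds) or TATAAA (the TATA box).
BICRAL: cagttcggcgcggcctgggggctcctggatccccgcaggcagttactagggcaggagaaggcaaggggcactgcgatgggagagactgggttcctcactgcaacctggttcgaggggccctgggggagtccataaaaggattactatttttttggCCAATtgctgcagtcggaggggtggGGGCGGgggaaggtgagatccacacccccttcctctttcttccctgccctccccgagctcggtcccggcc
BICRA: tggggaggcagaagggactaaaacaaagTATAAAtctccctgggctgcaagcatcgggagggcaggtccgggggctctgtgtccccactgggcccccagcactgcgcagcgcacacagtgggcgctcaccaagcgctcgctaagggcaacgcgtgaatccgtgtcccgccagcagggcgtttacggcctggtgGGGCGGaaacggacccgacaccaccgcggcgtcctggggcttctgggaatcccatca
PBRM1: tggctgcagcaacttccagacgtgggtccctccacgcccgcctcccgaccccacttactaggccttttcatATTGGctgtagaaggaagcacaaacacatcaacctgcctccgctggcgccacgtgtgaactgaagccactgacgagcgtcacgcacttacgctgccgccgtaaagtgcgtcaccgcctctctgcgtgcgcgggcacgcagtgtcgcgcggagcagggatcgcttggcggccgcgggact
The BICRAL window held 1 GGGCGG and 1 CCAAT, the BICRA window 1 GGGCGG and 1 TATAAA, and the PBRM1 window 1 CCAAT, which reads ATTGG on the strand shown. Over the 35116 promoter windows of the same length, 42.6% held GGGCGG, 32.0% held CCAAT and 10.7% held TATAAA. Also searched were CCGGAAG (ETS factors; 8.52% of windows), AAGATGG (YY1; 3.70%) and the NRF1 motif (1.03%), none of which matched in the 3 windows shown; matches of one motif may overlap each other. Among the windows not shown, that of PHF10 held 7 matches to GGGCGG, that of BRD7 held 3, and the second window of PBRM1 held 6. No library measured binding at these windows, and the matches describe the letters alone.

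Libraries held 27257876 to 55419458 counts in genes. The 7 B cell markers were all present, with a summed level of 3646 to 4675 CPM (counts scaled to library size and TMM factors). T cell markers summed to 7.57 to 28.2 CPM, with CD2, CD5, CD4 and CD8A under 0.1 CPM, and the other marker lists summed to 9.72 CPM or less. The T cell sum was lower in each GFP low library than in any GFP high library of its time, with 17.8 to 19.0 CPM in GFP high against 7.57 to 9.54 CPM in GFP low cells at 24 h. The other way round at 24 h, the list of epithelial, kidney and fibroblast markers, with 5 of 6 genes under 0.1 CPM, summed to 5.08 to 5.42 CPM in GFP high and 7.69 to 9.72 CPM in GFP low cells, and the 5 myeloid markers to 0.762 to 0.990 against 2.13 to 2.42 CPM. The mitochondrial share of counts was 4.27% to 4.62% in GFP high against 3.48% to 3.64% in GFP low cells at 24 h, and 2.67% to 2.79% against 3.81% to 3.98% at 72 h. The part of these in the results was not tested. Because a degron acts on the protein, SMARCA4 mRNA does not check the labels: at 24 h GFP high cells had 418 ± 9.38 CPM and GFP low cells 589 ± 21.4 CPM (SD, n = 3 libraries each).

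Per length of exon, PBRM1 had the highest and BICRA the lowest mRNA level of the 7 in each of the 6 groups. In GFP high cells at 24 h the level was 1.47 ± 0.157 RPKM (reads per kilobase of exon, scaled to library size like CPM; mean ± SD, n = 3 libraries) for BICRA, 5.27 ± 0.0645 RPKM for ARID2 and 6.27 ± 0.0140 RPKM for BRD9. BICRAL stood at 6.65 ± 0.133 RPKM, PHF10 at 11.0 ± 0.382 RPKM, BRD7 at 15.1 ± 0.336 RPKM and PBRM1 at 21.1 ± 0.170 RPKM, and no neighbours in this order overlapped. The upper 4 places were the same in all 6 groups. ARID2 lay below BRD9 in GFP high cells at 24 and 48 h and above it in the other 4 groups, and only in GFP low cells at 48 h did the libraries of these neighbours overlap. Within PBAF the ARID subunit was the least abundant transcript per length in each group, and within noncanonical BAF BICRAL exceeded BICRA in each library.

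**Figure D1:**
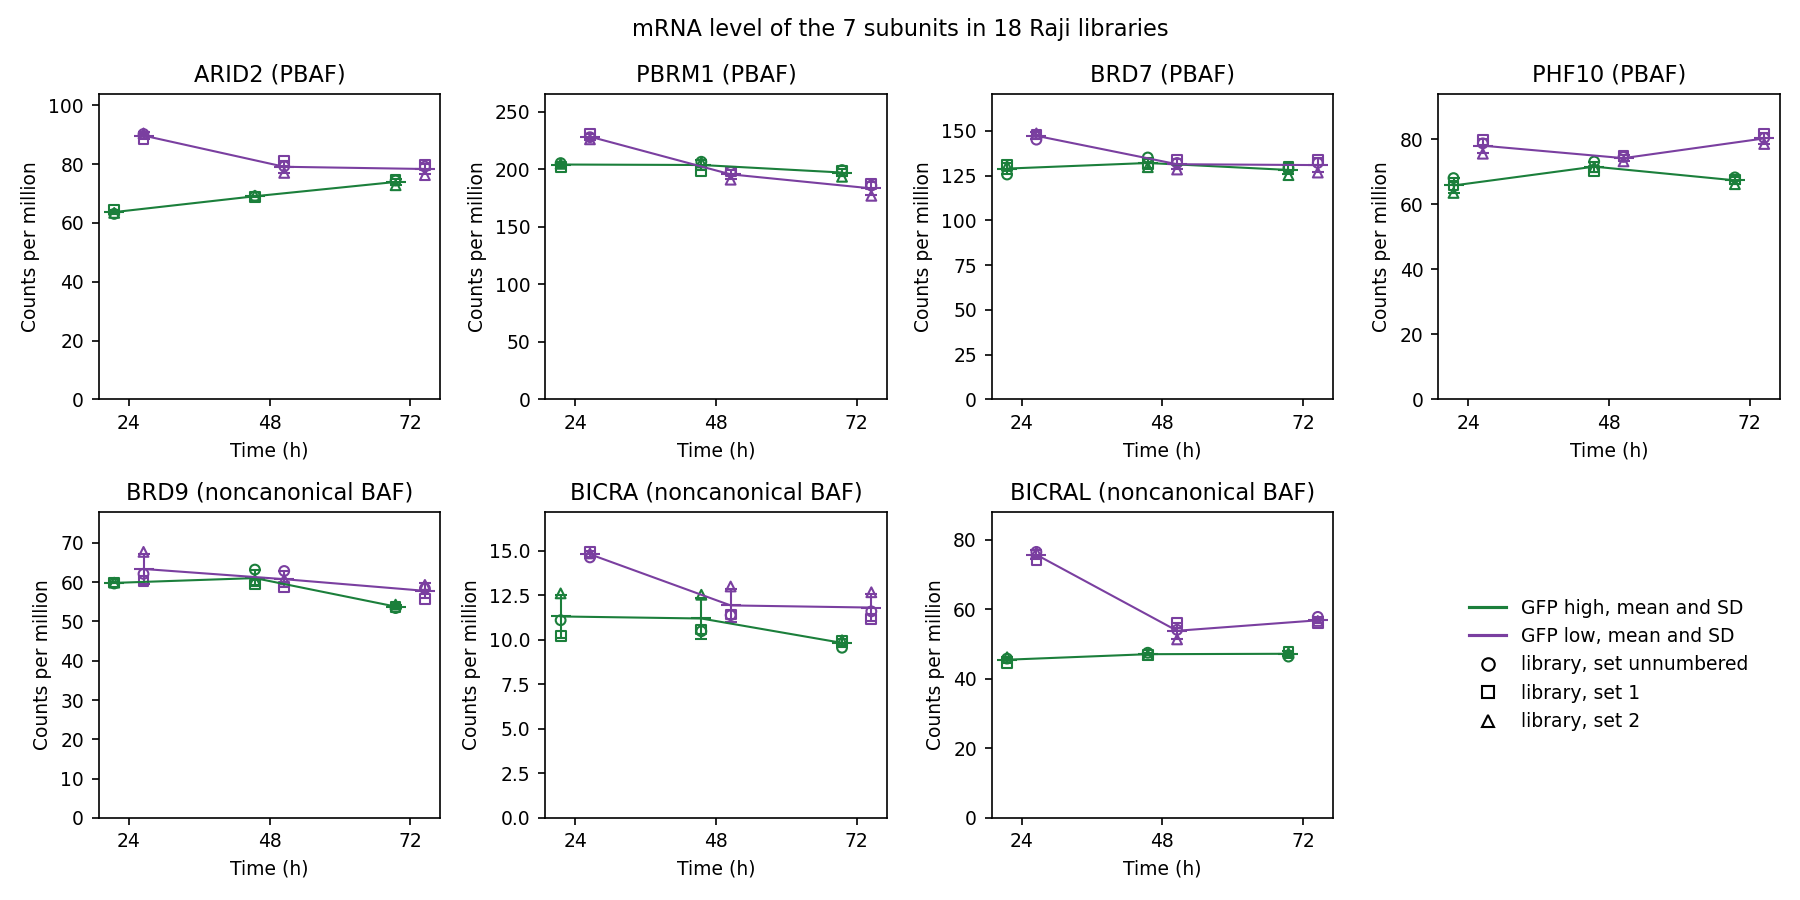
Levels of the 7 subunits in CPM (vertical axes from 0) against time in hours, with GFP high in green and GFP low in purple. Points are single libraries (circle, unnumbered set; square, set 1; triangle, set 2), lines join the means and bars are SD of 3 libraries; at 24 h each GFP low library lies above each GFP high library in all 7 panels.

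At 24 h all 4 PBAF transcripts and 2 of the 3 noncanonical BAF transcripts were higher in GFP low than in GFP high cells, with BICRAL (1.66-fold), ARID2 (1.41-fold) and BICRA (1.30-fold) ahead of PHF10 (1.19-fold), BRD7 (1.14-fold) and PBRM1 (1.12-fold). Of the 7, 6 were called higher (edgeR quasi-likelihood test, Benjamini-Hochberg adjusted p under 0.05 over all 16474 genes), none lower, and BRD9 was not called. Over all genes tested 57.9% were called in this comparison, with 29.3% higher and 28.5% lower. The 3 libraries of the 2 GFP levels did not overlap for 7 of 7 members, against 61.8% of all genes. The median log2 fold change was 0.25 over the 7 members and 0.03 over all genes tested. In bulk RNA a smaller share of cells with a transcript and less of it per cell cannot be told apart, here or in any comparison that follows.

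At 48 h only ARID2 and BICRAL of the 7 were called, both higher in GFP low cells, where 23.8% of all genes were called (10.6% higher and 13.2% lower). The libraries of the 2 levels did not overlap for 4 of 7 members (36.8% of all genes), and the members' median log2 fold change was 0.05 (all genes -0.01). At 72 h ARID2, PHF10, BICRA and BICRAL were called higher and PBRM1 lower, 5 of 7 against 26.4% of all genes (12.9% higher and 13.5% lower). Groups did not overlap for 6 of 7 members (38.8% of all genes), and the median was 0.11 (all genes 0.00). The 3 comparisons set different libraries against each other, but they share an estimate of the spread, and the library sets run across the times. They are therefore not independent of each other.

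**Figure D2:**
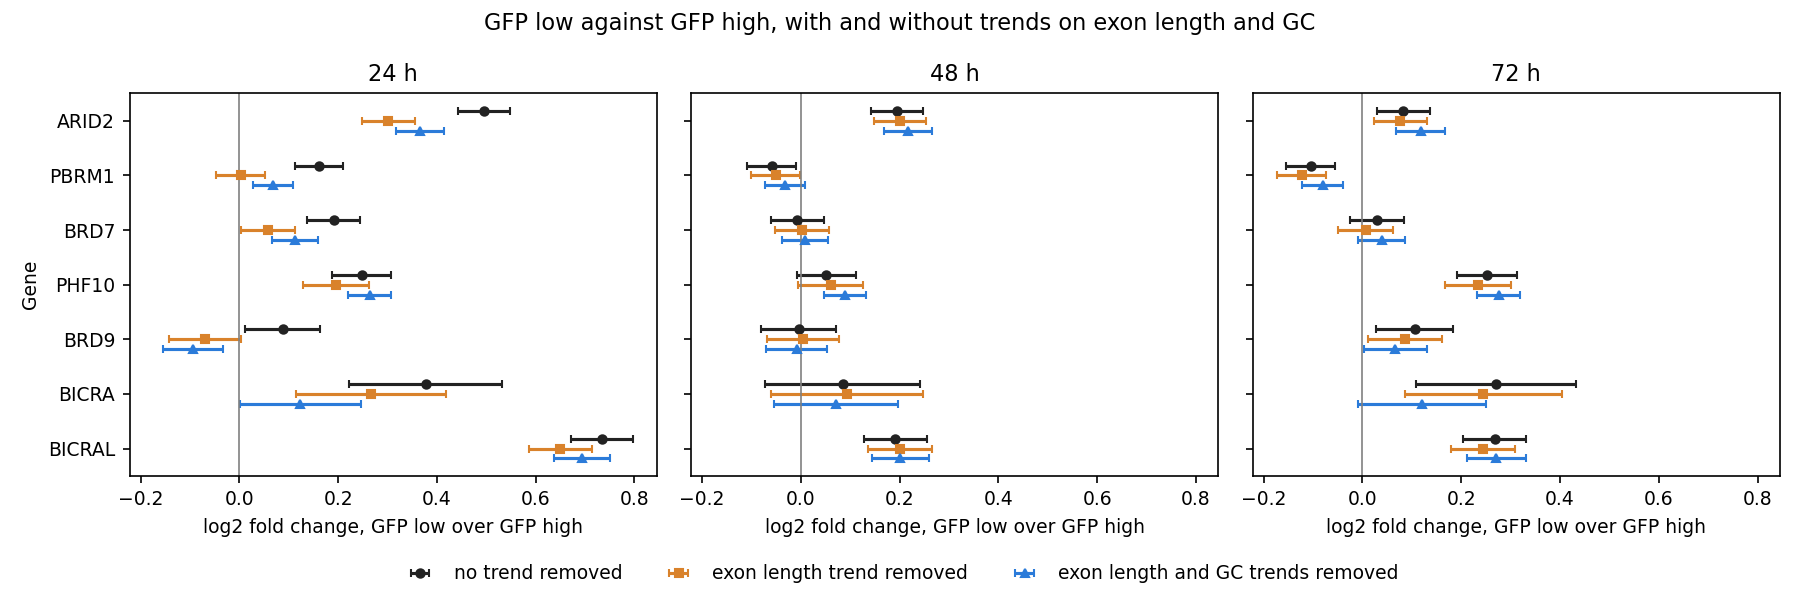
Log2 fold change of GFP low over GFP high (horizontal axes) for each subunit at 24, 48 and 72 h, with 95% intervals, from the fit as reported (black), after removing the trend with exon length (orange) and after removing trends with exon length and GC content (blue). BICRAL and ARID2 stay to the right of 0 in each panel and under each of the 3 fits, while PBRM1 at 24 h moves from 0.16 to 0.00 when the length trend is removed and to 0.07 when both are.

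Across 10117 protein-coding genes, longer genes had higher log2 fold changes at 24 h (Spearman rho 0.47, across genes, which are not independent replicates), but not at 48 h (rho -0.03) or 72 h (rho 0.05). With GC content the rho was 0.10 at 24 h, 0.11 at 48 h and 0.25 at 72 h. The members are long: among the 4143 tested genes with exon lengths from 5982 to 12086 bases, 48.5% were called higher and 21.3% lower at 24 h, with a median log2 fold change of 0.14. After each library's trend with exon length was removed, the values at 24 h were 0.65 for BICRAL (adjusted p = 1.43e-13), 0.30 for ARID2 (adjusted p = 2.97e-09), 0.27 for BICRA (adjusted p = 0.00566) and 0.20 for PHF10 (adjusted p = 4.02e-05). PBRM1 was then 0.00 (adjusted p = 0.940) and BRD7 0.06 (adjusted p = 0.0867), and neither was called; with the block added BRD7 was (0.06, adjusted p = 0.0242). BRD9 was -0.07 (adjusted p = 0.118). With trends on length and GC content both removed, PBRM1 (0.07, adjusted p = 0.00651) and BRD7 (0.11, adjusted p = 0.000251) were called higher. Whether the trends with length and GC content reflect the cells or the libraries was not tested.

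**Figure D3:**
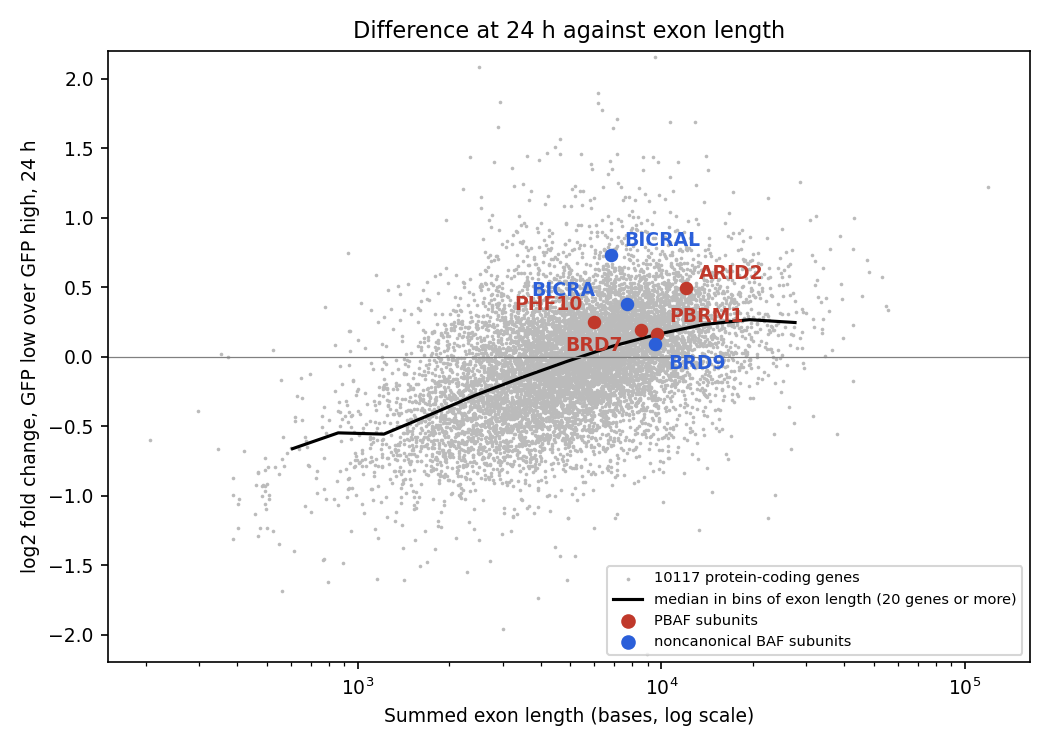
Log2 fold change of GFP low over GFP high at 24 h against summed exon length in bases (log scale) for 10117 protein-coding genes (grey; 6 lie outside the vertical axis), with the median in bins of length as a black line. PBAF subunits are red and noncanonical BAF subunits blue; BICRAL, ARID2, BICRA and PHF10 lie above the line, PBRM1 and BRD7 near it, and BRD9 below it.

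ARID2, the subunit on which PBAF assembly depends, had 63.1, 64.5 and 63.4 CPM in the 3 GFP high libraries at 24 h (unnumbered set, set 1 and set 2, the order used throughout) and 90.2, 88.4 and 90.4 CPM in GFP low. The values at 48 h were 69.0, 68.9 and 69.3 CPM in GFP high against 79.2, 81.0 and 77.0 CPM in GFP low. At 72 h they were 74.4, 74.6 and 72.8 against 79.2, 79.6 and 76.2 CPM. GFP low was the higher level at each time with no overlap, and from 24 to 48 h the gap narrowed from both sides. The log2 fold change was 0.50 ± 0.03 (SE; edgeR adjusted p = 6.40e-13) at 24 h, 0.19 ± 0.03 (adjusted p = 1.20e-05) at 48 h and 0.08 ± 0.03 (adjusted p = 0.0267) at 72 h. From 24 to 48 h the difference changed by -0.30 ± 0.04 on the log2 scale (adjusted p = 1.01e-06), by -0.10 (adjusted p = 0.0415) without the length trend and by -0.15 (adjusted p = 0.00108) without both trends. The further change of -0.11 ± 0.04 to 72 h was not called (adjusted p = 0.0763), but was when library sets were fitted as a block (adjusted p = 0.0203) and without the length trend (-0.12, adjusted p = 0.0489), and likewise without the GFP low 48 h library of set 2 (adjusted p = 0.0293) or the GFP high 72 h library of set 2 (adjusted p = 0.0475). The call at 72 h was lost without the GFP low library of the unnumbered set (adjusted p = 0.0748), without that of set 1 (adjusted p = 0.0842) and without the GFP high library of set 2 (adjusted p = 0.105), and by DESeq2 (adjusted p = 0.0814), in a fit of the 2 groups alone (adjusted p = 0.0640) and without the filter on low counts (adjusted p = 0.180).

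PBRM1, the PBAF bromodomain array, was called higher in GFP low cells at 24 h and lower at 72 h. At 24 h it had 205.4, 202.3 and 204.8 CPM in GFP high and 227.9, 231.2 and 226.1 CPM in GFP low. At 48 h the GFP high values of 206.6, 198.8 and 205.9 CPM lay above the GFP low values of 197.8, 198.1 and 191.0 CPM, the lowest GFP high library being 0.65 CPM above the highest GFP low one. At 72 h GFP high had 199.3, 198.7 and 193.5 CPM and GFP low 185.9, 187.4 and 177.0 CPM, again without overlap. Its log2 fold change was 0.16 ± 0.02 (adjusted p = 8.36e-06) at 24 h, -0.06 ± 0.02 (adjusted p = 0.0923, and 0.00615 when library sets were blocked) at 48 h and -0.11 ± 0.03 (adjusted p = 0.00336) at 72 h. Its change from 24 to 48 h was -0.22 ± 0.04 (adjusted p = 2.12e-05), and -0.05 (adjusted p = 0.257) without the length trend, but -0.10 and called (adjusted p = 0.00645) without both trends. The lower level at 72 h was also called without that trend, at -0.12 (adjusted p = 0.000899).

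BRD7, the other PBAF bromodomain protein, was called higher in GFP low cells at 24 h and at neither later time. GFP high libraries had 125.6, 130.8 and 130.4 CPM and GFP low libraries 145.1, 148.0 and 148.6 CPM at 24 h. At 48 h the values were 135.1, 131.3 and 129.7 against 132.0, 133.6 and 128.4 CPM, and at 72 h 129.2, 130.0 and 125.3 against 132.1, 133.8 and 126.7 CPM, so the levels overlapped at both later times. The log2 fold change was 0.19 ± 0.03 (adjusted p = 3.17e-06) at 24 h, -0.01 (95% interval -0.06 to 0.05; adjusted p = 0.894) at 48 h and 0.03 (95% interval -0.02 to 0.08; adjusted p = 0.482) at 72 h. The change from 24 to 48 h was -0.20 ± 0.04 (adjusted p = 0.000217), and -0.06 (adjusted p = 0.291) without the length trend, but -0.10 and called (adjusted p = 0.0144) without both trends. BRD7 shares 3593 of its 8546 exon bases with ADCY7, an adenylyl cyclase gene on the opposite strand with 25238 counts over the 18 libraries against 91128 for BRD7. No source used here states whether counting used strand, and ADCY7 itself was 0.96 ± 0.05 higher on the log2 scale in GFP low cells at 24 h (adjusted p = 4.86e-13); its part in the BRD7 value was not tested.

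PHF10, the PHD finger subunit of PBAF, was higher in GFP low cells at 24 and 72 h and close to level at 48 h. It had 68.1, 65.8 and 63.5 CPM in GFP high and 78.8, 79.8 and 75.6 CPM in GFP low at 24 h. At 48 h the values were 73.2, 70.2 and 71.5 against 74.6, 74.9 and 73.2 CPM, with no overlap but a gap of 0.042 CPM, and at 72 h they were 68.3, 67.7 and 66.2 against 80.5, 81.9 and 78.6 CPM. The log2 fold change was 0.25 ± 0.03 (adjusted p = 4.26e-07) at 24 h, 0.05 ± 0.03 (adjusted p = 0.250) at 48 h and 0.25 ± 0.03 (adjusted p = 2.15e-06) at 72 h. At 48 h it was 0.09 and called (adjusted p = 0.00291) with exon length and GC trends both removed. PHF10 was the one member whose difference was called as changed in both steps (ARID2 was too with the block or without the length trend, as given above): by -0.20 ± 0.04 from 24 to 48 h (adjusted p = 0.000776) and by 0.20 ± 0.04 from 48 to 72 h (adjusted p = 0.00480). PHF10 shares 187 exon bases with C6orf120 on the opposite strand, which had 47687 counts against 49747 for PHF10 with a log2 fold change of its own of -0.16 ± 0.03 at 24 h (adjusted p = 9.69e-05).

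BICRAL had the largest difference of the 7 at 24 h and, with ARID2, was called at all 3 times. GFP high libraries had 45.8, 44.5 and 46.2 CPM and GFP low libraries 76.5, 74.2 and 76.4 CPM at 24 h. At 48 h the values were 47.5, 46.9 and 46.9 against 54.1, 56.1 and 51.4 CPM, and at 72 h 46.4, 47.8 and 47.4 against 57.8, 56.1 and 56.7 CPM. All GFP high libraries lay between 44.5 and 47.8 CPM whatever the time, and all GFP low libraries above them. The log2 fold change was 0.73 ± 0.03 (adjusted p = 1.30e-14) at 24 h, where 14.7% of all genes tested had a larger absolute log2 fold change. It was 0.19 ± 0.03 (adjusted p = 0.000129) at 48 h and 0.27 ± 0.03 (adjusted p = 2.00e-06) at 72 h. The change of the difference from 24 to 48 h was -0.54 ± 0.05 (adjusted p = 2.00e-09).

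BICRA, the paralogue of BICRAL, was the least precisely measured member, with 297 to 724 counts per library (a counting error of 5.80% to 3.72%) and a biological coefficient of variation of 5.70%, against 1.91% to 2.88% for the other 6. At 24 h it had 11.1, 10.2 and 12.6 CPM in GFP high and 14.6, 14.9 and 14.9 CPM in GFP low. Values at 48 h of 10.5, 10.6 and 12.5 CPM in GFP high overlapped with 11.4, 11.4 and 13.0 CPM in GFP low. At 72 h they were 9.55, 9.95 and 9.98 CPM in GFP high and 11.2 to 12.7 CPM in GFP low, with no overlap. Its log2 fold change was 0.38 ± 0.08 (adjusted p = 0.000303) at 24 h, 0.08 ± 0.08 (adjusted p = 0.510) at 48 h and 0.27 ± 0.08 (adjusted p = 0.0188) at 72 h. With trends on exon length and GC content removed it was 0.12 (adjusted p = 0.0935) at 24 h and 0.12 (adjusted p = 0.186) at 72 h, and neither was called. The call at 72 h was also lost without the GFP high library of the unnumbered set (adjusted p = 0.0540) or the GFP low library of set 2 (adjusted p = 0.134). Its change from 24 to 48 h, -0.29 ± 0.11 (adjusted p = 0.0401), was lost in 10 of the 18 fits that leave out 1 library: the unnumbered or set 1 library of GFP high at 24 h or of GFP low at 48 h, any GFP low library at 24 h, or the set 2 library of GFP high at 48 h or of either level at 72 h. The weakest of these was -0.16 (adjusted p = 0.284), without the GFP high 48 h library of set 2. It was lost as well by DESeq2 (adjusted p = 0.0641), in a fit of the compared groups alone (adjusted p = 0.0533), without the filter on low counts (adjusted p = 0.0608) and without the length trend (-0.17, adjusted p = 0.230).

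BRD9, the bromodomain protein that marks noncanonical BAF, had the smallest difference of the 7 at 24 h. At 24 h it had 59.7, 59.9 and 59.9 CPM in GFP high and 62.1, 60.3 and 67.7 CPM in GFP low, separated by 0.37 CPM. At 48 h the values were 63.2, 59.4 and 60.5 against 62.9, 58.7 and 60.7 CPM, and at 72 h 53.4, 53.7 and 54.3 against 58.4, 55.7 and 59.3 CPM. The groups overlapped at 48 h, while at 72 h each GFP low library was the higher. The log2 fold change was 0.09 (95% interval 0.01 to 0.16; adjusted p = 0.0573) at 24 h, 0.00 (95% interval -0.08 to 0.07; adjusted p = 0.95) at 48 h and 0.11 (95% interval 0.03 to 0.18; adjusted p = 0.0530) at 72 h. With library sets blocked, BRD9 was called higher at 24 h (adjusted p = 0.00757) and at 72 h (adjusted p = 0.00782). Leaving out the GFP low 24 h library of set 1 raised the value at 24 h to 0.13 (adjusted p = 0.00873), while removing trends on length and GC content turned it to -0.09 (adjusted p = 0.0126). In all, 6 of 18 fits that leave out 1 library called BRD9 at 24 h, the others being those without the unnumbered GFP high library at 48 or 72 h, the unnumbered GFP low library at 72 h or either set 1 library at 72 h (adjusted p 0.0397 to 0.0480). Over all 18 fits the value at 24 h ran from 0.03 to 0.13, and its adjusted p from 0.00873 to 0.496. At 72 h 5 of 18 called BRD9, without the unnumbered GFP high library at 24 or 48 h, the GFP low 24 h library of set 1 or set 2, or the GFP low 72 h library of set 1 (adjusted p 0.0212 to 0.0464). Over all 18 fits the value at 72 h ran from 0.08 to 0.13, and its adjusted p from 0.0212 to 0.220.

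Within GFP low cells 5 of the 7 fell from 24 to 48 h, where 50.8% of all genes were called (25.7% higher and 25.1% lower). The libraries of the 2 times did not overlap for 6 of 7 members, against 56.6% of all genes. BICRAL changed by -0.50 ± 0.03 (adjusted p = 9.80e-12), BICRA by -0.31 ± 0.08 (adjusted p = 0.00206), PBRM1 by -0.22 ± 0.02 (adjusted p = 9.33e-08), ARID2 by -0.18 ± 0.03 (adjusted p = 3.73e-06) and BRD7 by -0.17 ± 0.03 (adjusted p = 2.16e-05). With sets blocked, PHF10 (-0.07, adjusted p = 0.0104) and BRD9 (-0.07, adjusted p = 0.0426) passed as well. Leaving out 1 library brought PHF10 past the threshold in 3 of 18 fits, without the unnumbered or set 2 GFP high 24 h library or the set 2 GFP low 24 h library (adjusted p 0.0211 to 0.0479), and BRD9 in 1, without the set 1 GFP low 24 h library (-0.10, adjusted p = 0.0432). Log2 fold changes of this step also followed exon length across protein-coding genes (rho -0.43). Among genes with exon lengths from 5982 to 12086 bases, 46.4% were called lower and 19.6% higher, with a median log2 fold change of -0.12. Without the length trend ARID2 (-0.03, adjusted p = 0.459) and BRD7 (-0.04, adjusted p = 0.228) were not called and PBRM1 was -0.08 (adjusted p = 0.00883). With the GC trend removed too, ARID2 (-0.08, adjusted p = 0.00473) and BRD7 (-0.10, adjusted p = 0.000868) were called lower and BICRA was not (-0.03, adjusted p = 0.758). BRD9 was 0.08 (adjusted p = 0.104) without the length trend. It was called higher, opposite to its sign in the fit as reported, without both trends and with the block and the length trend removed.

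From 48 to 72 h in GFP low cells, PHF10 rose by 0.11 ± 0.03 (adjusted p = 0.00820) and PBRM1 changed by -0.09 ± 0.03 (adjusted p = 0.00798), 2 of 7 against 26.4% of all genes (13.9% higher and 12.5% lower). The times did not overlap for 3 of 7 members (39.6% of all genes). The PHF10 call was lost without the 48 h library of set 2 (adjusted p = 0.0578) or the 72 h library of set 1 (adjusted p = 0.0550). BICRAL, at 0.08 ± 0.03 (adjusted p = 0.0653), was called when sets were blocked (adjusted p = 0.0192) and without the 48 h library of set 1 (adjusted p = 0.0364).

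In GFP high cells ARID2 rose in both steps, by 0.12 ± 0.03 from 24 to 48 h (adjusted p = 0.00387) and by 0.10 ± 0.03 from 48 to 72 h (adjusted p = 0.0104). PHF10 rose by 0.12 ± 0.03 in the first step (adjusted p = 0.00630), so that 2 of 7 were called against 20.6% of all genes (10.6% higher and 9.97% lower), with no overlap for 3 of 7 (34.4% of all genes). Without the length trend the ARID2 value of the first step was 0.07 (adjusted p = 0.0641), and without the 24 h library of set 2 that of PHF10 was 0.10 (adjusted p = 0.0510). In the second step BRD9 changed by -0.18 ± 0.04 (adjusted p = 0.00135) and PHF10 by -0.09 ± 0.03 (adjusted p = 0.0382), so that 3 of 7 were called against 27.8% of all genes (13.7% higher and 14.2% lower), with no overlap for 4 of 7 (40.1% of all genes). The block added BICRA (-0.21, adjusted p = 0.00581) and PBRM1 (-0.05, adjusted p = 0.0261). PHF10 in this step was lost in 5 of the 18 fits that leave out 1 library, namely without the unnumbered or set 2 library at 48 h or any library at 72 h, with adjusted p from 0.0508 to 0.131. It was also lost by DESeq2 (adjusted p = 0.0788) and with DESeq2 size factors in edgeR (adjusted p = 0.0545).

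Between 24 and 48 h the difference between GFP levels was called as changed toward lower values in 6 of the 7. BRD9 was not called (-0.09 ± 0.05, adjusted p = 0.185). Over all genes 43.5% were called in either direction (22.1% upward and 21.4% downward). Without the length trend 3 of the 7 members were called. From 48 to 72 h 1 of the 7 was called, the PHF10 difference given above, against 9.01% of all genes (5.18% upward and 3.83% downward). These changes share the 48 h libraries and are not independent of each other.

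**Figure D4:**
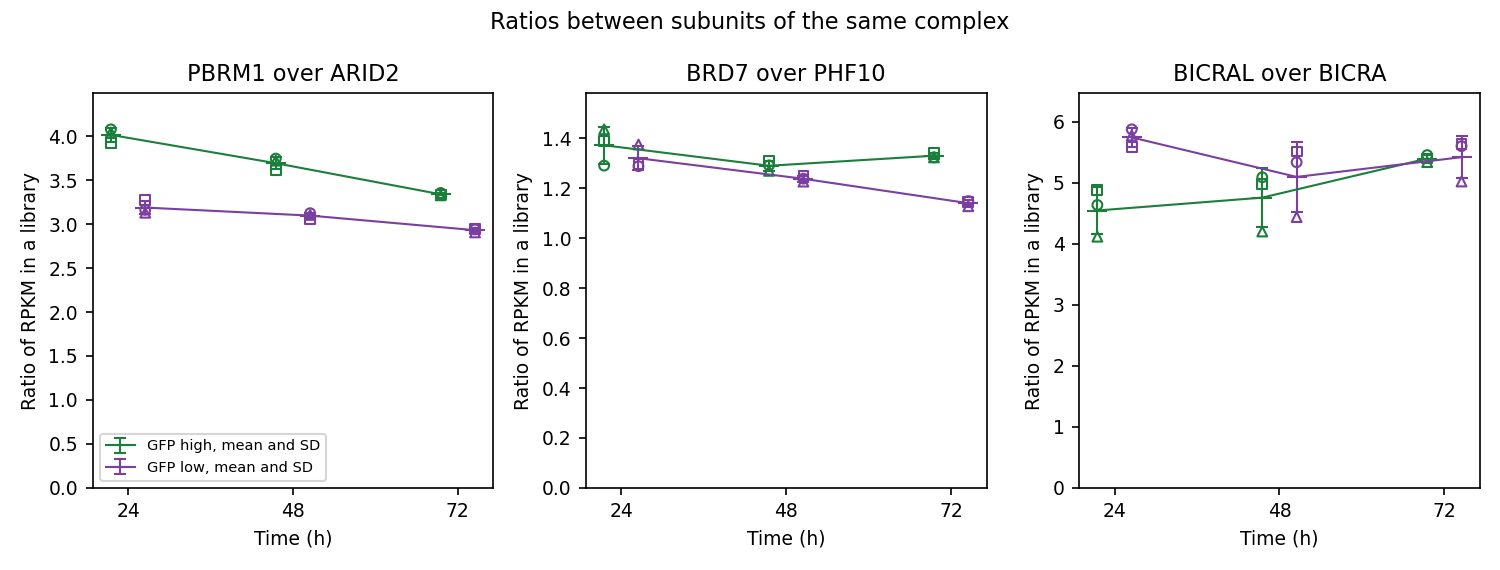
Ratio of RPKM between subunits of one complex in each library (vertical axes from 0) against time in hours, with GFP high in green and GFP low in purple (circle, unnumbered set; square, set 1; triangle, set 2; bars are SD of 3 libraries). PBRM1 over ARID2 is lower in GFP low libraries at each time, BRD7 over PHF10 separates at 48 and 72 h, and BICRAL over BICRA separates at 24 h.

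The levels of subunits within a complex were also set against each other, as ratios of RPKM in each library. The PBRM1 to ARID2 ratio of RPKM was 4.02 ± 0.0809 in GFP high against 3.19 ± 0.0756 in GFP low cells at 24 h (SD, n = 3 each). It was 3.69 ± 0.0713 against 3.10 ± 0.0321 at 48 h, then 3.34 ± 0.0137 against 2.93 ± 0.0221 at 72 h. Its libraries did not overlap between levels at any time, and the ratio was lower at each later time within both levels. The BRD7 to PHF10 ratio overlapped at 24 h (1.37 ± 0.0743 and 1.32 ± 0.0477) and did not at 48 h (1.29 ± 0.0197 and 1.24 ± 0.0112) or 72 h (1.33 ± 0.0114 in GFP high and 1.14 ± 0.0108 in GFP low). The BICRAL to BICRA ratio was 4.55 ± 0.392 in GFP high against 5.75 ± 0.150 in GFP low cells at 24 h, without overlap, while the ratios overlapped at 48 h (4.76 ± 0.484 and 5.10 ± 0.577) and 72 h (5.40 ± 0.0578 and 5.42 ± 0.346). No test was run on these ratios.

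Against the scaffold of canonical BAF, the ARID2 to ARID1A ratio of RPKM at 24 h was 0.252 ± 0.00928 in GFP high against 0.257 ± 0.00546 in GFP low cells, with overlap, and at 48 h it was 0.257 ± 0.00541 and 0.302 ± 0.0152, without overlap. At 72 h it was 0.303 ± 0.0095 and 0.302 ± 0.0123, with overlap again. Relative to the ATPase SMARCA4, BRD9 stood at 0.232 ± 0.00505 in GFP high against 0.174 ± 0.00441 in GFP low cells at 24 h, and at 0.212 ± 0.00348 and 0.198 ± 0.00486 at 72 h. The GFP low libraries were the lower ones at both of these times, while at 48 h the levels overlapped (0.222 ± 0.00959 and 0.205 ± 0.00978). The ARID2 to SMARCA4 ratio was 0.195 in both levels at 24 h and overlapped at 48 h (0.199 ± 0.00386 and 0.210 ± 0.0119), and at 72 h it was the lower in GFP low cells without overlap (0.231 ± 0.00853 in GFP high and 0.212 ± 0.0111 in GFP low). The BICRAL to SMARCA4 ratio was the higher in GFP low cells at 24 h without overlap (0.246 ± 0.00354 in GFP high and 0.291 ± 0.00878 in GFP low). It overlapped at 48 h (0.239 ± 0.00638 and 0.253 ± 0.0189) and at 72 h (0.260 ± 0.00669 and 0.272 ± 0.00976).

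The other SWI/SNF genes and bromodomain genes were read from lists by function. Both ATPase genes were called higher in GFP low cells at the first 2 times and 1 of 2 at 72 h, with log2 fold changes of 0.50, 0.11 and 0.20 for SMARCA4 and 0.39, 0.12 and 0.08 for SMARCA2. Of 12 tested shared core subunits (ACTL6B had too few counts), 4 were higher and 6 lower at 24 h. They included SMARCC2 at 0.41 and SMARCC1 at 0.11, paralogous scaffold proteins, against the actin-related ACTL6A at -0.64 and SMARCB1 at -0.21. Noncanonical BAF lacks SMARCB1, so not every gene of this list belongs to all forms. Of 7 canonical BAF subunits 3 were higher and 2 lower, with ARID1A at 0.47, ARID1B at 0.43, DPF1 at -0.44 and SS18 at -0.07. ARID1A (-0.04) and ARID1B (0.00) were near 0 at 48 h, where ARID2 was 0.19. At 24 h ARID2 was 0.50, and at 72 h ARID2 was 0.08, ARID1A 0.09 and ARID1B -0.02. The contrast between ARID genes was not tested. The medians at 24 h were -0.06 for the canonical BAF subunits and -0.09 for the shared core, beside 0.25 for the members and 0.03 for all genes; these differences between lists were not tested.

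Of 32 tested bromodomain genes outside these complexes (CECR2 and ZMYND11 had too few counts), 27 were higher and 1 lower at 24 h, with a median log2 fold change of 0.33. Over all genes 29.3% were higher and 28.5% lower. Among genes with exon lengths from 5982 to 12086 bases the shares were 48.5% and 21.3%. The part of the length trend in these list counts was not tested. Examples are BPTF, the large subunit of the NURF remodeller, at 0.70, the histone methyltransferase KMT2A at 0.73 and the corepressor TRIM28 at -0.15. At 48 h 5 were higher and 11 lower (median -0.06), beside 10.6% and 13.2% of all genes. At 72 h 9 were higher and 8 lower (median 0.02), beside 12.9% and 13.5% of all genes. BPTF was 0.11 and 0.22 at these later times, and KMT2A 0.08 and -0.15. At 24 h the PBAF and noncanonical BAF median of 0.25 lay below that of the other bromodomain genes, and at 48 and 72 h, at 0.05 and 0.11, above it; these differences between lists were not tested.

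Across the 18 libraries the members did not follow one course. Pearson's r of log2 CPM between 2 members, over libraries that share group, set and depth, ran from 0.01 for PBRM1 with PHF10 to 0.91 for ARID2 with BICRAL, with a median of 0.56 over 21 pairs. The highest r was thus between a PBAF and a noncanonical BAF gene, and BRD7 with BICRAL stood at 0.86. BICRA with its paralogue BICRAL reached 0.81, and ARID2 with PBRM1 0.33. Candidates for likeness were 10367 genes whose mean reached 1 CPM, without pseudogenes and without clone, LOC, LINC, antisense or similar names. Among them, those most like BICRAL were KIF3B (0.988) and DIS3L (0.976), and most like ARID2 were ADAM22 (0.961) and ATP8A1 (0.960). BMP2K (0.972) and MAP3K5 (0.971) came nearest to PBRM1, DYNC2I1 (0.945) and GOLGB1 (0.941) to BRD7, and ABLIM1 (0.934) and ZNF84 (0.919) to PHF10. SBNO2 (0.966) and DPP9 (0.951) were nearest to BICRA, and GRAMD4 (0.893) and RRP1B (0.891) to BRD9, the lowest values of the 7. These r describe the 18 libraries and carry no test.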

How the data were processed

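RNA-seq libraries were made from total RNA of Raji cells with a kit that depletes ribosomal RNA, per the labels' protocols. The deposited values are raw counts of reads per gene, and per the file headers the table has the layout of featureCounts, with exon positions, strand and summed exon length beside the counts. Per the submitters' processing notes FastQC, STAR, Subread and featureCounts, R 4.2.1 and the build hg38 were used, with no order stated. No source used here states the strand setting, the annotation release or the handling of reads with several positions.

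The names of the columns give GFP level and day (read as 24, 48 and 72 h for days 1, 2 and 3) and a library set (unnumbered, 1 or 2), and do not show which of the 3 replicate numbers a column carries. Of 60710 table lines, the 3 that hold a broken entry of ANK2 were dropped. A symbol was matched for 60695 genes, and 58439 genes are in GENCODE 29. The test was that of edgeR 4.0.16 under R 4.3.3 (filterByExpr, TMM, 6 group means, quasi-likelihood F tests, 12 residual degrees of freedom), 2-sided, with Benjamini-Hochberg adjustment over 16474 genes and calls at an adjusted p under 0.05; each SE is the size of the log2 fold change divided by sqrt(F). Small differences pass, since the common biological coefficient of variation is 3.49%. CPM and RPKM were computed from the counts with TMM factors. The steps were tested on simulated data.

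All pairs of libraries within a group differed by more than sampling noise, at a chi-square per degree of freedom of 2.06 to 5.19, and were kept as separate replicates. The column names' sets pair the libraries: once group means were taken off, 45 same-set pairs of libraries had correlations of 0.22 to 0.55. The 90 pairs across sets had a median of -0.21. Taking off means of 3 libraries forces these below 0 when same-set pairs lie above it, so they add no separate evidence. Fits with the set as a block are given where they change a call.

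The members and lists were chosen with earlier results of these data known. Named besides the members were the 2 genes of highest Pearson r with each over the 18 libraries, and in each list up to 2 genes in each direction by adjusted p at 24 h. Genes for the former had a mean of at least 1 CPM, and pseudogenes and clone, LOC, LINC, antisense or similar names were left out. Alternatives were DESeq2 size factors, DESeq2 1.42.0, no filter on low counts, the block, removal of the trend with exon length (lowess, span 0.3) or, chosen after seeing the data, with exon length and GC content, the block with the length trend removed, a fit of the compared groups alone, and leaving out each library.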

Additional observations from a re-analysis of the deposited data

Results flagged for a closer look

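The difference between GFP low and GFP high cells itself differed between 24 and 48 h in 6 of the 7 genes, by a test of the change in edgeR. On the log2 scale the change was -0.54 for BICRAL, -0.30 for ARID2, -0.29 for BICRA, -0.22 for PBRM1, -0.20 for BRD7 and -0.20 for PHF10, each toward a smaller or reversed difference at 48 h. The change in BICRA (adjusted p = 0.0401) rests on few counts and was lost in 10 of the 18 fits that leave out 1 library. Between 48 and 72 h the PHF10 difference changed by 0.20, back to its size at 24 h, and stayed called in all 18 of these fits. Over all genes 43.5% were called in the first test (22.1% upward and 21.4% downward) and 9.01% in the second (5.18% upward and 3.83% downward). Changes in the first test followed exon length across protein-coding genes (rho -0.50). Among genes with exon lengths from 5982 to 12086 bases, 40.6% were called downward in it. Without the length trend 3 of the 7 members were called, and PBRM1, BRD7 and BICRA were not.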

How the results depend on the processing

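For single genes, 453 of 504 values outside the fits that leave out 1 library kept their side of the threshold, 30 fell short of it, 18 passed it and 3 changed sign and passed it. Of the 453, 430 kept their sign, and 23 that were called neither before nor after changed it, such as BRD9 at 24 h, which was -0.070 without the length trend and -0.064 with the block added, its change from 24 to 48 h, which was 0.074 without the length trend, and BRD7 at 48 h, which was 0.00014 to 0.0087 in 7 settings. The 3 that passed the threshold with the opposite sign were in BRD9: -0.094 at 24 h without the trends on length and GC content, and in GFP low cells from 24 to 48 h 0.089 without the same trends and 0.070 with the replicate block and the length trend removed. Counts of called members or genes are listed here only where they changed by more than 1.5-fold. The count of members at 24 h stayed within that, though PBRM1 and BRD7 were not called there without the length trend. Members called for the change of the GFP difference from 24 to 48 h numbered 3 instead of 6 without the length trend, with or without the block. For the change from 48 to 72 h they numbered 2 instead of 1 with the block, without the length trend and with both. In GFP high cells from 24 to 48 h 1 was called instead of 2 without the length trend or both trends, and from 48 to 72 h 5 instead of 3 with the block. In GFP low cells from 24 to 48 h 3 were called instead of 5 without the length trend. All genes called for the change from 48 to 72 h numbered 3327 with the block, 3266 with the block and the length trend removed and 2361 with both trends removed, against 1485. Those called in GFP high cells from 24 to 48 h numbered 5398 with the block and 5275 with the block and the length trend removed, against 3387. The cause was not tested. The block changed no other call of a member than those given with the results. Leaving out 1 library at a time gave 1 to 2 members called for the change from 48 to 72 h, 1 to 2 in GFP high from 24 to 48 h and 1 to 3 in GFP low from 48 to 72 h; of the 1134 single-gene values, 1093 kept their side of the threshold (32 uncalled ones with the opposite sign), 23 fell short and 18 passed. Depth limits BICRA, with 297 to 724 counts per library, more than the other members.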
